A study of Mus musculus with 4 samples.

Results

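The genes described here are 10 members of the bone morphogenetic protein (BMP) and hepcidin axis of the liver, taken by symbol from the 55488 genes of the deposited count matrices. They are the ligands Bmp2, Bmp6, Gdf2 (BMP9) and Bmp10, the response genes Id1, Smad6 and Smad7, the hepcidin genes Hamp and Hamp2, and the transferrin receptor gene Tfr2. The study sequenced RNA of single liver cells from 4 mice, 1 of each genotype: WT, YAPKO, TAZKO and DKO. In the knockout strains Alb-Cre, which is active in hepatocytes (HCs) and biliary epithelial cells (BECs), removed floxed Yap, floxed Taz or both, so that endothelial cells (ECs), hepatic stellate cells (HSCs) and Kupffer cells (KCs) kept both genes. The mice received no treatment, and their age is not given for this assay. HCs and non-parenchymal cells were isolated separately after digestion of the liver in situ and mixed before loading, so the shares of cell types follow the mixing as well as the liver. With 1 library per genotype no test between genotypes is possible, and every comparison below is between libraries. Intervals are exact 95% intervals that cover counting error only.

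BMP ligands bind type I and type II receptors, which phosphorylate SMAD1, SMAD5 and SMAD8, and these enter the nucleus with SMAD4. In the liver, ECs make BMP2 and BMP6, and the SMAD signal in HCs drives hepcidin, the peptide hormone that closes the iron exporter ferroportin. BMP9 and BMP10 come from HSCs and act mainly on ECs. ID1, SMAD6 and SMAD7 are induced by the same SMADs, and the last of these block the pathway in turn. Interleukin 6 acts on hepcidin through STAT3. TFR2 senses iron-laden transferrin on HCs.

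Mice have a pair of hepcidin genes, which lie 17686 bases apart on the minus strand of chromosome 7 (GRCm38). Hamp, which encodes the iron hormone, spans 30942368 to 30944032, and its paralogue Hamp2 spans 30922372 to 30924681. The 250 bases before each start site are printed because the plain ratios of the 2 genes to WT over all HCs had opposite signs. This did not hold under every alternative given below, and the part of the sequences in it was not tested. They are taken from RefSeq (GRCm38.p6), from chr7:30944030-30944279 for Hamp and chr7:30924182-30924431 for Hamp2, and start sites are those of RefSeq. The GENCODE span of Hamp2 given above begins further upstream, so its window lies inside that span. Capitals mark GGCGCC, the core of a BMP response element, and TTCNNNGAA, the spacing bound by STAT factors, searched on both strands.
Hamp: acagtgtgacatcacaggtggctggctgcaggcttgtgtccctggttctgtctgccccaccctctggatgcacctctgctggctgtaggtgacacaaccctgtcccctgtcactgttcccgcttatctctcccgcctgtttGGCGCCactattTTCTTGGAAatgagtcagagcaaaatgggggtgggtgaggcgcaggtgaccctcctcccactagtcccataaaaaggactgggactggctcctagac
Hamp2: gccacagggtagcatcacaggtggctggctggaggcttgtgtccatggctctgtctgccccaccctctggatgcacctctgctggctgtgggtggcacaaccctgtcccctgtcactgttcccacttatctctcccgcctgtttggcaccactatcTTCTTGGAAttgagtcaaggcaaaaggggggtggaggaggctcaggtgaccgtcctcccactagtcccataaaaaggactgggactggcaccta

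The Hamp window holds GGCGCC 109 to 104 bases before the start site and the STAT motif 97 to 89 bases before it. At the aligned place Hamp2 has GGCACC, through the substitution G145A (Hamp base first, counted from 1 at the 5′ end of the Hamp window), and it keeps the STAT motif 94 to 86 bases before its start. Of 247 aligned bases 227 were identical (91.9%). GGCGCC occurs in 3149 of 32851 promoter windows of this length (9.586%) and TTCNNNGAA in 2306 (7.02%). Promoter windows were in the table for 7 of the 10 members, and those of Bmp6, Gdf2, Bmp10, Smad6 and Tfr2 held neither motif. The transcripts of Hamp and Hamp2 are identical at 389 of 410 aligned bases, and 60 of the 361 windows of 50 bases in Hamp occur in Hamp2, so reads could be split between them only in part.

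Of the deposited barcodes, 30362 were kept as cells, 7155 in WT, 6275 in YAPKO, 8638 in TAZKO and 8294 in DKO, at median depths of 4618, 7337, 3555.5 and 5952.5 unique molecular identifiers (UMIs) per cell. Levels are UMIs per 1000000 UMIs of the same cells (CPM). HCs numbered 2203, 1212, 3027 and 3032 in WT, YAPKO, TAZKO and DKO, ECs 2115, 1394, 1839 and 1314, and HSCs 313, 143, 210 and 158. In HCs Yap1 stood at 21.4, 4.75, 47.3 and 4.5 CPM and Wwtr1 (Taz) at 5.22, 13.3, 2.59 and 2.35 CPM, in the order WT, YAPKO, TAZKO, DKO, so each targeted gene was lower in the libraries that should lack it. Xist was at most 0.118 CPM and Y-linked genes at least 159 CPM in every library. Pairs of libraries shared 9 to 26 barcodes. The doublet caller marked at most 0.0463% of cells, a share that does not show how many doublets there were. No cell was removed as a doublet, and leaving out the top 8% by doublet score was an alternative. HCs carried their 8 markers in every library, and ECs their 9, but HSCs also carried EC markers, which is given beside the HSC values.

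**Figure D1:**
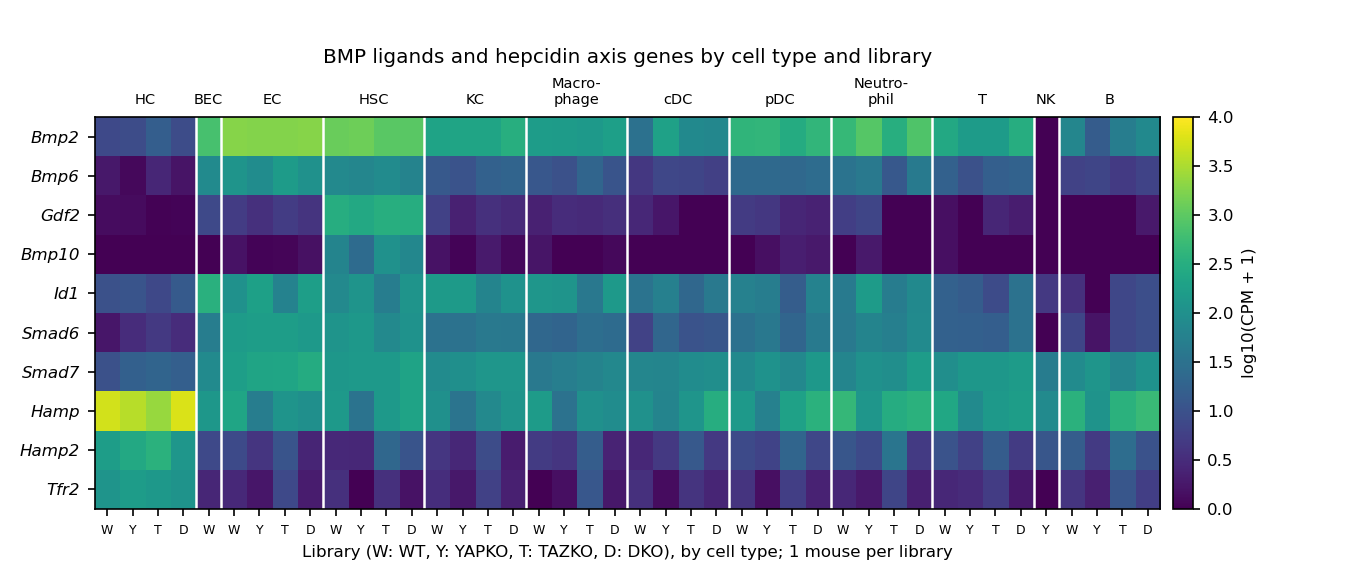
Level of the 10 genes in each cell type and library, as log10(CPM + 1) in colour. Columns are libraries within cell types of at least 50 cells, and rows are genes. Hamp, Hamp2 and Tfr2 are brightest in HCs, Bmp2 in ECs, and Gdf2 and Bmp10 are bright in HSCs alone.

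BMP2 is a main ligand that ECs send to HCs. In ECs Bmp2 stood at 1844 CPM in WT (1819 to 1870.1), 1805 in YAPKO (1780.4 to 1831), 1780.4 in TAZKO (1750.1 to 1811) and 1867 in DKO (1838 to 1898). The 4 libraries were close to each other. The log2 ratio to WT was -0.03 in YAPKO (-0.06 to -0.00), -0.05 in TAZKO (-0.08 to -0.02) and 0.02 in DKO (-0.01 to 0.05). At least 1 Bmp2 UMI was found in 95.04% of ECs in WT, 96.8% in YAPKO, 94.0% in TAZKO and 96.9% in DKO, and in 76.5%, 76.7%, 75.7% and 78.6% once each cell was thinned to 1000 UMIs. B cells, which should lack the gene, held one in 3.9%, 1.15%, 3.64% and 3.76%, at median depths of 2198.5 to 2945.5 UMIs against 3879 to 7608.5 in ECs.

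BMP6 is the ligand that follows the iron stores. In ECs Bmp6 stood at 116 CPM in WT (109.5 to 122), 87.9 in YAPKO (82.5 to 93.6), 156 in TAZKO (148 to 166) and 106 in DKO (99.3 to 114). TAZKO was above and YAPKO below the other libraries, and WT and DKO overlapped. Against WT the log2 ratio was -0.40 in YAPKO (-0.52 to -0.28), 0.43 in TAZKO (0.32 to 0.55) and -0.12 in DKO (-0.25 to 0.00). After thinning, 11.4% of ECs held a Bmp6 UMI in WT, 8.65% in YAPKO, 14.8% in TAZKO and 9.22% in DKO, which gives the same order of the highest and lowest library. Neither ligand reached a fold of 2 in any library. Of the 8 members counted in ECs, Hamp and Hamp2 were lower by that much in YAPKO and DKO, Hamp2 in DKO on under 100 UMIs over the pair, and none was higher. HC markers in ECs moved with them, at 4.57%, 1.18%, 5.16% and 1.59% of their HC level in WT, YAPKO, TAZKO and DKO, and their part was not tested. Of all genes counted there, 0.957% were higher by a fold of 2 or more in YAPKO, 3.6% in TAZKO and 1.78% in DKO, and 2.56%, 1.79% and 3.04% were lower.

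Within ECs the 2 ligands had small differences of opposite sign between the zones of the lobule, and both were found in each zone. Cells were split by whether they held more UMIs of 6 pericentral genes such as Wnt2 or of 7 periportal genes such as Efnb2. Bmp2 in pericentral ECs was 2012 CPM in WT, 1969.95 in YAPKO, 2125 in TAZKO and 1973 in DKO, and in periportal ECs it was 1770.3, 1735, 1614 and 1793. The log2 ratio of pericentral to periportal ECs was 0.18, 0.18, 0.40 and 0.14, and every interval lay above 0. For Bmp6 the same ratio was -0.38 in WT, -0.35 in YAPKO, -0.24 in TAZKO and -0.38 in DKO, and every interval lay below 0. Smad6 went with Bmp6, at -0.38, -0.23, -0.33 and -0.41. The split did not use these genes, yet ECs of 1 library come from 1 mouse, so the counting intervals do not stand for a spread between mice.

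A smaller EC cluster of 216 cells was led by Ednrb, Adgrg6 and Vwf, genes of larger vessels. There, with 45 of the cells in DKO, Bmp2 was 798 CPM in WT, 854 in YAPKO, 680.2 in TAZKO and 524 in DKO, below the 1874, 1855, 1826 and 1923 of the main EC cluster. Id1 was higher in that smaller cluster in every library, at 315, 386, 244 and 632 CPM against 97.1, 174, 51.3 and 156. These clusters were made without the members.

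Gdf2 encodes BMP9, the circulating ligand that HSCs give to the endothelium. In HSCs Gdf2 stood at 313 CPM in WT (292 to 335), 257 in YAPKO (233 to 282), 321 in TAZKO (293 to 350.1) and 306 in DKO (281 to 333). YAPKO was the lowest library, with a log2 ratio to WT of -0.29 (-0.46 to -0.12), and those of TAZKO (0.04) and DKO (-0.03) had intervals that span 0. The 9 HSC markers together were also lowest in YAPKO, at 11465, 10892, 12846 and 11830 CPM in the same order of libraries. EC markers in HSCs were highest in YAPKO, at 63.2%, 69.1%, 49.8% and 49.9% of their EC level. The part of both in the Gdf2 values was not tested. Gdf2 in ECs was 0.983% to 1.29% of the HSC level of the same library. A smaller cluster of 42 cells, led by Igfbp6, Clec3b and Mfap5, came under HSCs by the marker rule on 4 of the 9 HSC markers, and its leading 10 genes include Col3a1 and Col1a1. It held 1 UMI of Gdf2, in DKO, and none of Bmp10, so both genes were in the main HSC cluster of 782 cells. There Gdf2 stood at 327, 276, 344 and 329 CPM, with a log2 ratio in YAPKO of -0.25 (-0.42 to -0.08).

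Bmp10, the partner of BMP9 at the same receptor, varied more. In HSCs it stood at 63.8 CPM in WT (54.6 to 74.0), 24.0 in YAPKO (17.2 to 32.6), 106 in TAZKO (90.8 to 124) and 71.2 in DKO (59.5 to 84.5). YAPKO was below and TAZKO above every other library. The log2 ratio to WT was -1.41 in YAPKO (-1.94 to -0.91), 0.74 in TAZKO (0.42 to 1.05) and 0.16 in DKO (-0.18 to 0.50). In the main HSC cluster alone these ratios were -1.37, 0.77 and 0.20. Of the 9 HSC markers Reln, Rgs5 and Hand2 were also lowest in YAPKO and highest in TAZKO, Reln at 640.2, 474, 896 and 648 CPM, and Lrat stood at 481, 363, 467 and 348. Dcn was lowest in YAPKO and highest in TAZKO too, at 7051, 6198, 7478 and 6666 CPM, whereas Col1a1 and Col3a1 were lowest in WT. Colec11 and Des were lowest in TAZKO, where Bmp10 was highest, at 1661.5, 1588, 1439 and 1650 CPM and at 87.7, 86.1, 72.6 and 88.2 CPM. The part of these markers in the Bmp10 and Gdf2 values was not tested. Behind these values stand 173, 41, 167 and 130 UMIs, spread over 86, 30, 82 and 57 cells, and no cell held more than 7. Of the 8 members counted in HSCs, Bmp10 and Hamp were lower by a fold of 2 or more in YAPKO, beside 1.78% of all genes counted, and none was in TAZKO or DKO, beside 2.11% and 1.39%. None was higher, beside 0.742%, 3.46% and 2.29%. Alb in HSCs stood at 934, 204, 1822 and 725 CPM, so HC RNA was lowest in YAPKO together with Hamp, and its part was not tested. No Bmp10 UMI was found in HCs or B cells of any library, and 0 of 31542443 UMIs in DKO HCs allows up to 0.0951 CPM at the 3 UMIs that a count of 0 allows.

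HSCs also held Bmp2 and Bmp6, at 1221, 1331, 937 and 947 CPM and at 74.5, 66.8, 82.8 and 60.2 CPM in WT, YAPKO, TAZKO and DKO. This was 66.2%, 73.7%, 52.6% and 50.7% of the EC level for Bmp2 and 64.3%, 75.9%, 52.9% and 56.6% for Bmp6. The 9 EC markers, Stab2, Clec4g and Kdr among them, stood in HSCs at 63.2%, 69.1%, 49.8% and 49.9% of their EC level, so ligands and markers moved together over the libraries. In the 83 HSCs of the 4 libraries with at most 0.05% of UMIs from EC markers, 34 of them from the smaller cluster, Bmp2 was 48.7 CPM (33.3 to 68.7) and Bmp6 3.04 CPM (0.369 to 10.99, 2 UMIs). In the other 741 HSCs they were 1223 and 77.4 CPM. Over the 4 libraries together Gdf2 was 289 CPM (249 to 333) in those 83 cells and 302 in the others, and Bmp10 88.2 (67.0 to 114) and 63.3. These values depend on the smaller cluster. Without its 34 cells, the remaining 49 had 93.2 CPM of Bmp2 (61.9 to 135), no UMI of Bmp6, 629 CPM of Gdf2 (542 to 725) and 193 of Bmp10 (147 to 249). Gdf2 in these 49 cells was 653 CPM in the 15 of WT, 412 in the 3 of YAPKO, 492 in the 17 of TAZKO and 747 in the 14 of DKO, above the other HSCs of each library at 306, 264, 334 and 302, although the interval of YAPKO (244 to 651) overlaps that of its other HSCs (240 to 291) and the interval of TAZKO (296 to 768) does as well (305 to 365). Bmp10 was 271, 22.9, 181 and 179 CPM there, the YAPKO value from 1 UMI, against 55.9, 25.2, 110.1 and 70.1. This bound and the choice of leaving out the cluster were made after seeing the data.

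**Figure D2:**
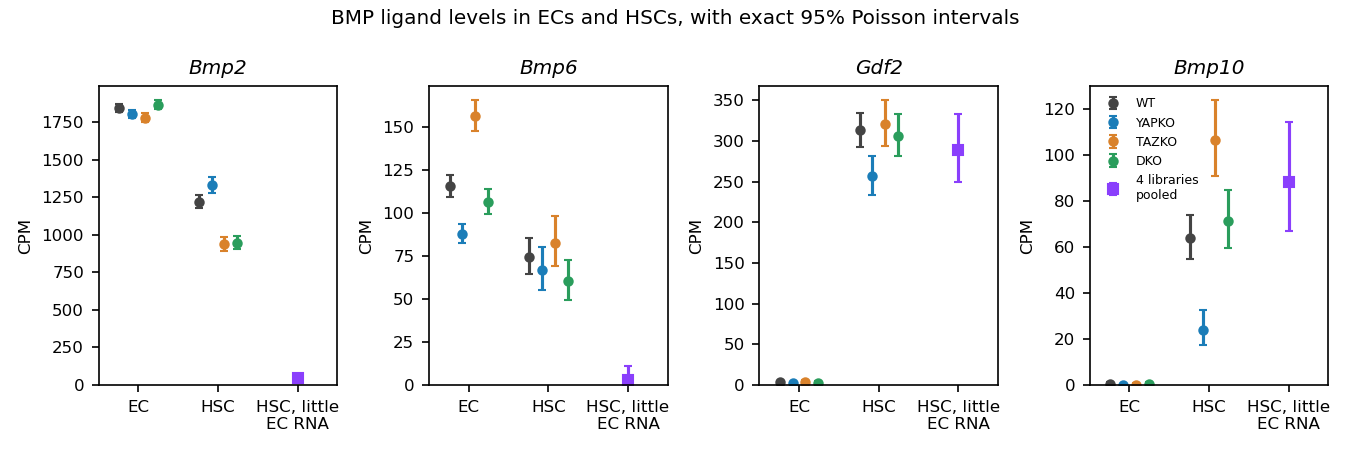
CPM of the 4 ligands in ECs and HSCs of each library, and in the 83 HSCs with little EC RNA pooled over the 4 libraries. Points are levels and bars exact 95% Poisson intervals. Pooled over libraries, those 83 HSCs, 34 of them from the smaller cluster, hold 48.7 CPM of Bmp2, 3.04 of Bmp6, 289 of Gdf2 and 88.2 of Bmp10.

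Ligands and EC markers were also close in several other cell types, but not in all of them. In neutrophils Bmp2 was 25.5%, 48.4%, 18.1% and 42.7% of its EC level where the EC markers were 25.9%, 45.5%, 20.1% and 45.2% of theirs. In KCs, the macrophages that line the sinusoids beside ECs, Bmp2 was 11.3% to 17.3% and the EC markers 13.7% to 19.3%. The EC marker Cdh5 was itself high in KCs, at 510.4, 534, 856 and 495 CPM against 715, 743, 969 and 865 in ECs, and without it the other 8 markers were 11.6% to 17.5%. HCs had 6.60, 7.51, 14.6 and 7.58 CPM of Bmp2, which is 0.358%, 0.416%, 0.818% and 0.406% of the EC level, beside 0.391%, 0.426%, 0.883% and 0.421% for the markers. The higher Bmp2 of TAZKO HCs, a log2 ratio of 1.14 (0.81 to 1.48), thus came with EC markers that were higher by as much. Bmp6 in the 53 BECs of WT lay above its markers, at 71.0% against 33.2%, on 82.2 CPM (61.0 to 108). Bmp2 in conventional dendritic cells was 1.66%, 10.7%, 4.47% and 3.75% of its EC level, below the markers at 4.99%, 10.8%, 6.97% and 6.62%. In B cells Bmp2 was 3.67%, 0.743%, 2.77% and 4.26% against 3.99%, 2.07%, 4.45% and 6.84%. Bmp6 in TAZKO neutrophils was 7.48% against 20.1%, from 2 UMIs. Whether EC RNA in these droplets is free RNA, an attached cell or a fragment was not tested.

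**Figure D3:**
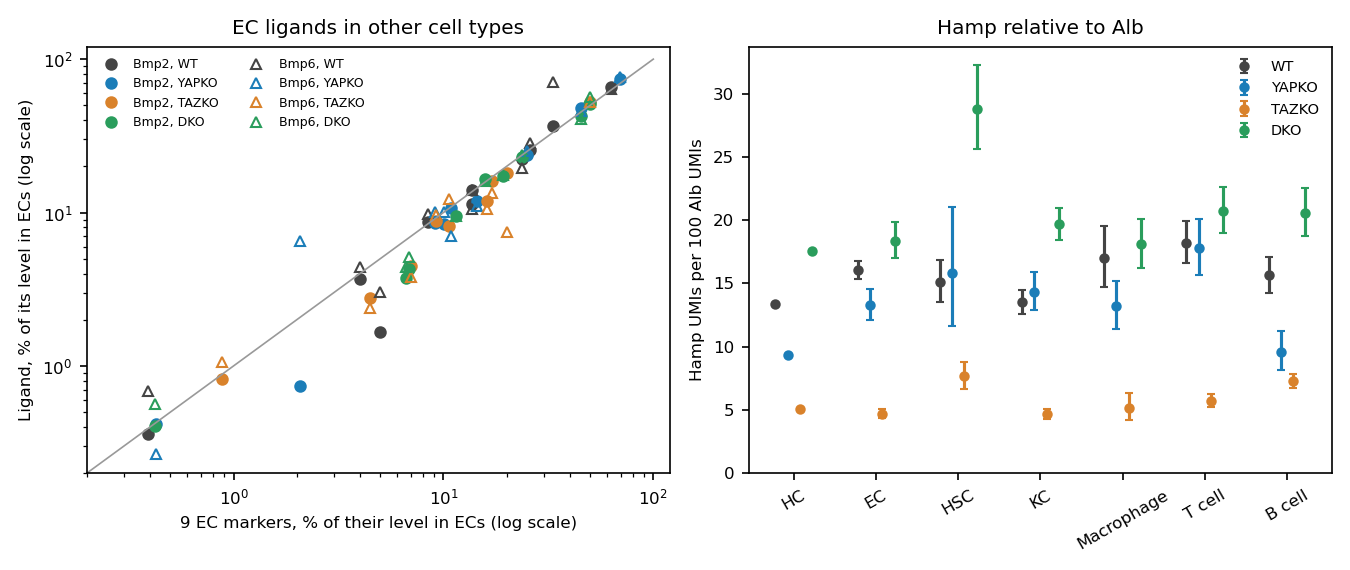
Left, Bmp2 (filled) and Bmp6 (open) in every cell type other than ECs and NK cells, as percent of the EC level of the same library, against 9 EC markers on the same scale, both axes logarithmic with the line of equality. Right, Hamp UMIs per 100 Alb UMIs by cell type and library with exact 95% intervals. Most points lie along the line, and TAZKO is lowest and DKO highest in HCs, ECs, HSCs, KCs, T cells and B cells.

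The ligand list beyond the members held 13 genes, of which 3 had 100 or more UMIs in ECs and 4 in HSCs. Bmp5, another HSC ligand, stood at 182, 94.9, 279 and 188 CPM in HSCs, with the order of Bmp10, and at 151 CPM in the 83 HSCs with little EC RNA. Inhbb, a subunit of activin B, stood at 35.9, 72.8, 26.7 and 47.7 CPM in ECs, a log2 ratio to WT of 1.02 in YAPKO, -0.43 in TAZKO and 0.41 in DKO. Relative to the median gene Inhbb was not past a fold of 2 in YAPKO. Bmp5 in ECs stood at 4.33, 1.99, 5.02 and 2.76 CPM, past a fold of 2 lower in YAPKO, beside 2.56% of all genes. It had under 100 UMIs over that pair of libraries, which the genes of that share had to reach. Tgfb1 was the most abundant of the list in ECs, at 226, 224, 179.7 and 252 CPM.

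Receptors were described in ECs and HCs. Of the 13 receptors and co-receptors 9 could be counted in ECs, and none differed by a fold of 2 in any library. Eng, the endothelial co-receptor of BMP9, stood at 1518, 1452, 1427 and 1469 CPM in ECs, and Bmpr2, the type II receptor, at 643, 559, 590.5 and 542. In HCs 10 could be counted, of which 1 was higher by a fold of 2 or more in YAPKO, 3 in TAZKO and none in DKO, beside 6.01%, 18.5% and 12.9% of all genes counted. None was lower, and relative to the median gene 0, 1 and 0 were higher, beside 1.78%, 3.35% and 5.1%. Their median log2 ratios to WT were 0.42, 0.77 and 0.12 beside 0.42, 0.57 and 0.47 over all genes. Tfrc, the main receptor for transferrin uptake, was the highest ratio among them in each library, at 8.44, 21.4, 28.5 and 16.7 CPM or log2 ratios of 1.34, 1.76 and 0.98. Acvr1, a type I receptor, and Neo1 were past a fold of 2 in TAZKO alone. Hjv, the hemojuvelin co-receptor for BMP6, stood at 23.0, 42.3, 31.1 and 19.3 CPM.

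Id1 is an early target of the SMADs. In ECs it stood at 103 CPM in WT (97.2 to 109), 184 in YAPKO (176 to 192), 59.0 in TAZKO (53.6 to 64.8) and 174 in DKO (165 to 184). YAPKO and DKO were alike and above WT, and TAZKO was below it. These are log2 ratios to WT of 0.84 (0.73 to 0.94), -0.81 (-0.97 to -0.64) and 0.76 (0.64 to 0.87). HSCs, which carry EC RNA, also had TAZKO lowest and YAPKO and DKO above WT, with 75.6, 117, 47.7 and 117 CPM. The HSCs with little EC RNA did not have that order, at 129, 8.46, 84.8 and 105 CPM from 25, 1, 10 and 24 UMIs, so WT was highest and YAPKO lowest there. Without the smaller cluster they held 11, 1, 0 and 5 Id1 UMIs, and the part of EC RNA in the Id1 of HSCs was not tested. KCs did not, at 153, 149, 63.7 and 107 CPM, where TAZKO was again lowest with a log2 ratio of -1.26 (-1.42 to -1.11).

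Id2 in ECs had another order than Id1. It stood at 152, 121, 391 and 426 CPM, log2 ratios of -0.32, 1.36 and 1.49, so TAZKO was high there and low for Id1. Id3 stood at 1022, 1294, 1098 and 1468 CPM, above WT in all 3 libraries, whereas Id1 was below it in TAZKO. Of the 8 genes counted in the list of SMADs and other targets, Id2 was the 1 past a fold of 2 in TAZKO and in DKO, beside 3.6% and 1.78% of all genes higher by as much, and none was in YAPKO, beside 0.957%. Of 8 genes of cell isolation stress, 6 were lower than in WT in YAPKO ECs, 7 in TAZKO and 6 in DKO, by a fold of 2 or more for 4, 5 and 3 of them, beside 2.56%, 1.79% and 3.04% of all genes. Fos stood at 257, 25.8, 22.1 and 45.5 CPM and Hspa1a at 207, 5.52, 66.5 and 34.1, whereas Jun, at 171, 148, 152 and 232, was highest in DKO and Klf2, at 571, 687, 640.0 and 481, in YAPKO. Their part in the Id1 values was not tested. In HSCs the stress list had median log2 ratios of -1.50, -1.53 and -1.05, beside 0.03, 0.12 and 0.03 over all genes. In HCs its medians were 0.15, -0.42 and 0.66, beside 0.42, 0.57 and 0.47, so TAZKO was lowest and DKO highest there. The part of these genes in the HSC and HC values of the members was not tested. In the interleukin 6 and STAT3 list, 8 genes were counted in ECs, of which 4, 5 and 4 were lower by a fold of 2 or more in YAPKO, TAZKO and DKO, beside 2.56%, 1.79% and 3.04%. The list had medians of -0.84, -1.19 and -1.56, and 1, 1 and 0 were higher, beside 0.957%, 3.6% and 1.78%. The gene higher in TAZKO had under 100 UMIs over that pair of libraries, which the genes of that share had to reach. HC markers in ECs, at 4.57%, 1.18%, 5.16% and 1.59% of their HC level, were also lower than in WT in YAPKO and DKO but not in TAZKO. The part of carried HC RNA in the values of this list was not tested. Socs3, a STAT3 target of that list, stood at 19.8, 62.6, 9.63 and 27.1 CPM, against the list in YAPKO and DKO.

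Smad7 and Smad6 encode the inhibitory SMADs. Smad7 in ECs stood at 176 CPM in WT (168 to 184), 212 in YAPKO (204 to 221), 228 in TAZKO (217 to 239) and 283 in DKO (272 to 295), so WT was the lowest and DKO the highest. The log2 ratio to WT was 0.27, 0.37 and 0.69, beside a median of 0.05, 0.18 and 0.07 over all genes. KCs had the same order of WT below DKO, at 84.3, 98.2, 123 and 124 CPM. Smad6 in ECs was 154, 170.1, 166 and 146 CPM, log2 ratios of 0.15, 0.11 and -0.07, and the one of TAZKO changed sign to -0.07 relative to the median gene. Of 7 counted genes of the inhibitor list in ECs, 0, 3 and 1 were higher by a fold of 2 or more in YAPKO, TAZKO and DKO, beside 0.957%, 3.6% and 1.78% of all genes, and none was lower. Bmper, a secreted BMP modulator, stood at 6.44, 9.59, 14.5 and 20.1 CPM, log2 ratios of 0.57, 1.17 and 1.64. Twsg1 and Tmprss6 were the others in TAZKO, at 1.24 and 1.88, and HC markers in ECs were highest in that library, as given above.

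In HCs the median gene lay above 0 in each comparison with WT, at a log2 ratio of 0.42 in YAPKO, 0.57 in TAZKO and 0.47 in DKO. Values of the members relative to this median are given beside the plain ones. HCs also fell into a cluster led by Gstm3 and Gsta2, here the Gstm3 cluster, and one led by Apob and Cps1, the Apob cluster. They are not matched in depth, with median UMIs of 1912, 3532, 1259.5 and 4536 in the Gstm3 cluster and 8515, 25862.5, 2794 and 21483 in the Apob cluster. The Gstm3 cluster held 1538 of the 2203 HCs in WT, 653 in YAPKO, 1298 in TAZKO and 2096 in DKO, the Apob cluster 665, 558, 1609 and 936, so most TAZKO HCs are in the other cluster than most WT HCs. The remaining HC cluster held 120 cells of TAZKO and 1 of YAPKO, and Hamp2 was among its leading 10 genes. The share of zone UMIs from 8 pericentral genes differed too. HCs at 0.25 or more, here the pericentral range, were 2.497% of HCs in WT, 10.97% in YAPKO, 56.3% in TAZKO and 6.83% in DKO. This range did not hold like cells in each library. In it Cyp2f2, a periportal gene, stood at 404.5, 214, 886 and 152 CPM. Glul, a pericentral gene, stood at 298, 704, 53.7 and 214 CPM. For Glul 1 cell held 187 of 241 UMIs in WT and 324 of 555 in DKO. Over all HCs 51.2%, 41.1%, 6.11% and 41.6% held no pericentral UMI. Whether the range marks a zone was not tested.

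Hamp, the hepcidin gene, was lower in YAPKO and TAZKO HCs than in WT. It stood at 5387 CPM in WT (5354 to 5420.0), 3714 in YAPKO (3685 to 3743), 2421 in TAZKO (2396 to 2447) and 5929.6 in DKO (5903 to 5957). On the log2 scale the ratio to WT was -0.54 in YAPKO, -1.15 in TAZKO and 0.14 in DKO, and relative to the median gene -0.96, -1.72 and -0.33. The direction for DKO thus depends on the scaling, and those for YAPKO and TAZKO do not. Per 100 UMIs of Alb, the albumin gene, HCs held 13.4, 9.32, 5.11 and 17.6 Hamp UMIs. In the Gstm3 cluster Hamp was 4753, 2619.6, 2786 and 5017 CPM, and in the Apob cluster 5581, 3937, 2388 and 6469, so YAPKO and TAZKO were below WT in both. In HCs of 2000 to 6000 UMIs the log2 ratios were -0.96, -0.47 and 0.14, which puts YAPKO lowest in place of TAZKO.

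Nearly every HC held Hamp. At least 1 UMI was found in 99.0% of HCs in WT, 92.7% in YAPKO, 94.0% in TAZKO and 98.7% in DKO, and in 93.7%, 77.0%, 84.99% and 92.0% after thinning to 1000 UMIs. Thinned B cells held one in 31.4%, 8.49%, 20.8% and 22.3%, and Hamp per 100 Alb UMIs in B cells, at 15.6, 9.61, 7.25 and 20.6, had the order of HCs. ECs gave 16.04, 13.3, 4.70 and 18.4. In both of these cell types TAZKO was lowest and DKO highest as well. The part of carried RNA in the Hamp of other cell types was not tested.

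Among HCs the ranges of pericentral share did not give Hamp 1 direction, and as given above they hold unlike cells between libraries. In HCs of the pericentral range it was 4943, 1760.2, 3407 and 6399 CPM and in the other HCs with at least 10 zone UMIs 5476, 3913, 1827 and 5902, so the pericentral range was lower in WT and YAPKO and higher in TAZKO and DKO. TAZKO was below WT in both ranges, with log2 ratios of -0.54 (-0.59 to -0.49) and -1.58 (-1.61 to -1.56). YAPKO was below it as well, at -1.49 and -0.48. The WT value of the pericentral range rests on 55 cells, and 626, 107, 546 and 176 HCs with fewer zone UMIs are in neither range.

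Hamp2 went the other way from Hamp in the plain ratios over all HCs. For DKO this did not hold relative to the median gene, where both were lower than in WT. Hamp2 stood at 168 CPM in WT (162 to 174), 259 in YAPKO (251 to 266), 358 in TAZKO (348 to 368) and 125 in DKO (121 to 129). The log2 ratio to WT was 0.62 in YAPKO (0.55 to 0.69), 1.09 in TAZKO (1.03 to 1.16) and -0.43 in DKO (-0.50 to -0.36), and relative to the median gene 0.20, 0.52 and -0.90. These levels rest on few cells. In WT 38 HCs held 10 or more Hamp2 UMIs, 1 cell held 456, and the 10 highest cells held 63.0% of all 3187 UMIs. In YAPKO, TAZKO and DKO the 10 highest held 38.3%, 37.5% and 16.3%. For Hamp itself the 10 highest HCs held 9.3% in WT and for Alb 5.23%. The deepest 5% of HCs held 35.7%, 18.6%, 39.0% and 19.2% of all UMIs in WT, YAPKO, TAZKO and DKO. The 10 highest cells are also out of unlike numbers of HCs, 2203, 1212, 3027 and 3032.

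Without the 10 HCs highest for Hamp2 in each library the log2 ratios to WT were 1.36, 1.86 and 0.73, so that DKO changed sign, whereas those of Hamp were -0.56, -1.20 and 0.20. The counting intervals of Hamp2 do not hold this spread between cells. The share of HCs with a Hamp2 UMI does not depend on the highest cells. After thinning it was 6.67% in WT (5.67 to 7.80), 9.60% in YAPKO (7.9997 to 11.4), 19.2% in TAZKO (17.8 to 20.7) and 7.91% in DKO (6.97 to 8.93), and thinned B cells gave 1.38%, 0.917%, 2.16% and 0.29%. TAZKO was the highest library in the sum, in the share and without the 10 cells.

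Hamp2 was higher in the pericentral range than in the other HCs of each library, in part through single cells. It was 1222, 433, 473 and 176 CPM there and 122, 244, 304 and 120.5 in the other HCs with at least 10 zone UMIs, log2 ratios of 3.32, 0.83, 0.64 and 0.55. In WT 1 cell held 456 of the 988 UMIs of that range, and in TAZKO 1 cell held 733 of 2307. Without the highest cell of each range, an alternative chosen after seeing the data, the ratios were 2.77, 0.51, 0.28 and 0.26. Within the pericentral range the libraries stood below WT, at log2 ratios of -1.50, -1.37 and -2.79, and outside it at 1.00, 1.31 and -0.02. The cells of that range are unlike between libraries, as given above. The HC cluster of TAZKO cells had 523 CPM of Hamp2 (457 to 595) and 1587 CPM of Hamp in that library.

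**Figure D4:**
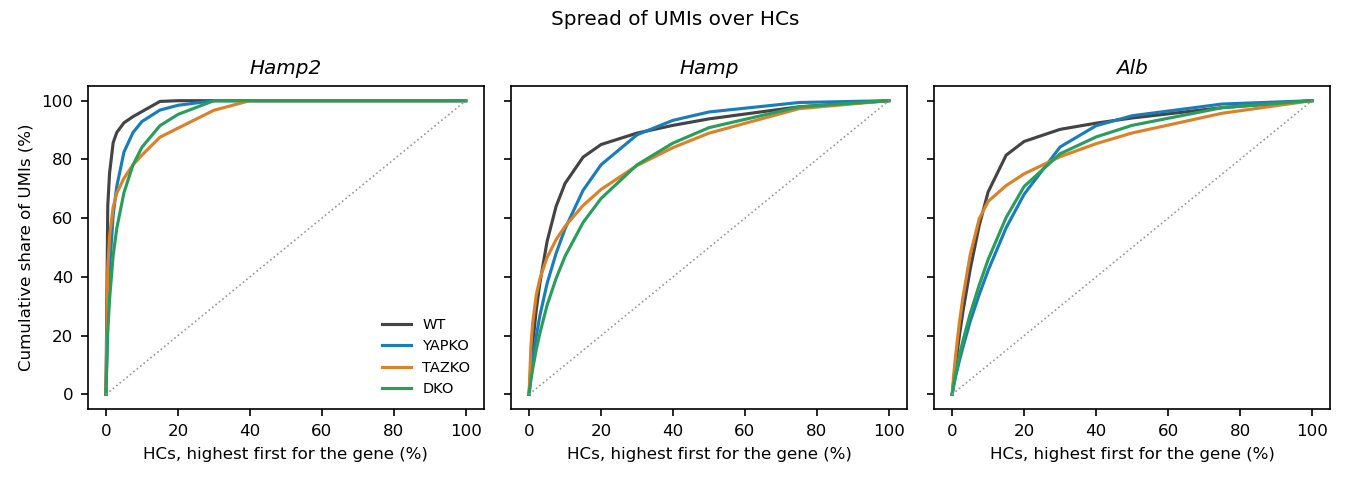
Cumulative share of the UMIs of Hamp2, Hamp and Alb over HCs ordered from the highest cell for each gene, 1 line per library, with the dotted line for an even spread. In WT the top 5% of HCs hold 92.5% of Hamp2 UMIs, against 52.3% for Hamp and 42.9% for Alb. The deepest 5% of WT HCs hold 35.7% of all UMIs.

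Tfr2 encodes transferrin receptor 2. In HCs it stood at 115 CPM in WT (110.0 to 119.7), 160.3 in YAPKO (154 to 166), 135 in TAZKO (129 to 141) and 112 in DKO (108 to 116). Its log2 ratio to WT was 0.48, 0.23 and -0.04, and relative to the median gene 0.06, -0.34 and -0.50, so the sign for TAZKO depends on the scaling. The clusters disagreed: in the Apob cluster Tfr2 was 142, 190.4, 146 and 170.3 CPM, and in the Gstm3 cluster 27.2, 11.9, 96.3 and 13.2, log2 ratios of -1.20, 1.82 and -1.04. No other cell type exceeded 11.1 CPM.

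Id1 in HCs was low. It stood at 8.76 CPM in WT (7.48 to 10.2), 9.92 in YAPKO (8.48 to 11.5), 6.49 in TAZKO (5.22 to 7.97) and 12.6 in DKO (11.4 to 14.0). TAZKO was lowest and DKO highest, as for Hamp per Alb, with log2 ratios to WT of 0.18, -0.43 and 0.53. Relative to the median gene they were -0.24, -1.003 and 0.07, so YAPKO changed sign. In HCs of 2000 to 6000 UMIs DKO was -0.07 and TAZKO -1.31. In the Gstm3 cluster Id1 was 13.7, 15.3, 9.73 and 12.2 CPM, so YAPKO was highest and the log2 ratio of DKO was -0.17. In the Apob cluster it was 7.24, 8.83, 5.71 and 12.9 CPM, with DKO highest. The ratio of DKO also changed sign with cells named by markers alone.

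Both inhibitory SMADs were higher in the HCs of the 3 knockout libraries. Smad7 stood at 8.92 CPM in WT (7.62 to 10.4), 15.6 in YAPKO (13.7 to 17.5), 18.7 in TAZKO (16.5 to 21.2) and 15.1 in DKO (13.8 to 16.5). Its log2 ratios were 0.80, 1.07 and 0.76, and relative to the median gene 0.38, 0.50 and 0.29. Smad6 rested on 14, 37, 49 and 70 UMIs, with 0.739, 2.17, 3.53 and 2.22 CPM and log2 ratios of 1.56 (0.63 to 2.56), 2.26 (1.38 to 3.23) and 1.59 (0.75 to 2.53), or 1.14, 1.69 and 1.12 relative to the median gene. Smad7 in HCs was 5.07% to 8.23% of the EC level and EC markers 0.391% to 0.883%. In the Gstm3 cluster the Smad6 ratio of DKO was -1.72. The Smad6 ratio of YAPKO changed sign with cells named by markers alone. Smad6 in HCs was 0.481% to 2.13% of its EC level.

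**Figure D5:**
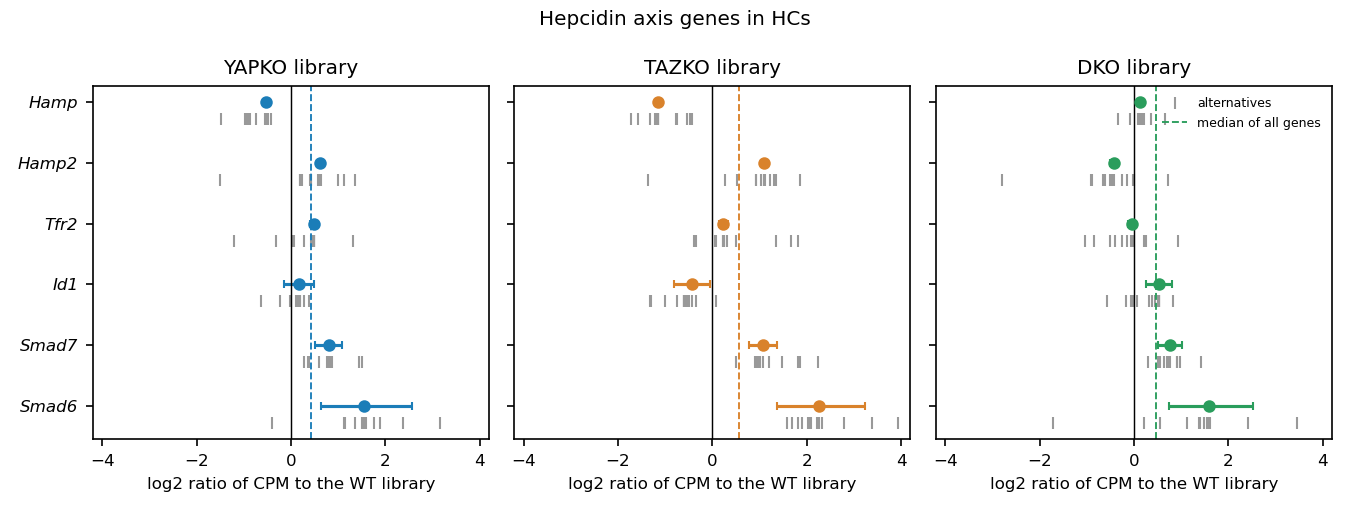
log2 ratio of CPM to the WT library for 6 genes in HCs of the YAPKO, TAZKO and DKO libraries. Points with bars are the ratios with exact 95% intervals, grey ticks the alternatives and dashed lines the median of all genes. Hamp lies left of 0 in YAPKO and TAZKO under every alternative, and Smad7 right of 0 in all 3 libraries.

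Of the 10 members 7 had enough UMIs in HCs to be counted. In YAPKO 1 was higher by a fold of 2 or more and none lower, beside 6.01% and 0.554% of all genes counted. In TAZKO 4 were higher and 1 lower, beside 18.5% and 1.13%, and in DKO 1 was higher and none lower, beside 12.9% and 1.7%. Relative to the median gene YAPKO had 1 higher and none lower, beside 1.78% and 1.24%. TAZKO had 1 higher and 2 lower, beside 3.35% and 4.8%, and DKO had 1 higher and none lower, beside 5.1% and 3.83%. Smad6 reached 100 UMIs over the 4 libraries but not over any pair with WT, as the genes of these shares had to. Over pairs 6 members were counted, of which none was past a fold of 2 in YAPKO and DKO, and 3 were higher and 1 lower in TAZKO. The 3 comparisons share the WT library.

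The other HC genes of the pathway are given by role. Of 8 counted SMADs and targets 1, 1 and 2 were higher by a fold of 2 or more in YAPKO, TAZKO and DKO, beside 6.01%, 18.5% and 12.9% of all genes counted, and none was lower. Atoh8, a target of iron-dependent BMP signal in HCs, stood at 2.69, 9.57, 13.05 and 8.27 CPM, log2 ratios of 1.83, 2.28 and 1.62, with WT lowest and TAZKO highest as for Smad6. Id2 and Id3 were highest in TAZKO, at 449 and 79.4 CPM against 232 and 41.8 in WT. Bambi, a decoy receptor, was past a fold of 2 in DKO. Of 9 counted inhibitors and processing genes 1, 0 and 2 were higher by a fold of 2 or more, beside the same shares, and none was lower. Furin, the protease that cleaves pro-hepcidin and BMP precursors, stood at 65.5, 106, 117 and 197 CPM, a log2 ratio of 1.59 in DKO. Tmprss6, the protease that removes hemojuvelin, stood at 117, 183, 183 and 122. Smurf1 was past a fold of 2 in YAPKO and DKO.

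Among the 13 iron genes, all counted in HCs, none was past a fold of 2 in YAPKO, beside 6.01% of all genes higher and 0.554% lower. In TAZKO 2 were higher and 1 lower, beside 18.5% and 1.13% of all genes counted. Relative to the median gene none was higher and 1 lower there, beside 3.35% and 4.8%. The genes past a fold of 2 in TAZKO were Slc40a1 (ferroportin) at 83.9 CPM against 41.2 in WT, Slc11a2 at 23.0 against 10.1, and Hpx (hemopexin) at 2776 against 5841. Ftl1, a ferritin subunit, stood at 3275, 4363, 2587 and 6530.0 CPM and Fth1 at 4124, 5056, 3701 and 6776, so both were lowest in TAZKO and highest in DKO, as Hamp was. Trf, the transferrin gene, stood at 7245, 11134, 8462 and 9795 CPM. In KCs, which recycle iron, Slc40a1 stood at 2861, 2253, 3584 and 2400.4 CPM. In the ligand list Gdf15 stood at 12.5, 33.8, 8.001 and 30.8 CPM in HCs, past a fold of 2 in YAPKO and DKO, beside 6.01% and 12.9% of all genes.

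The interleukin 6 and STAT3 list stood apart by library. In TAZKO 6 of 10 counted genes were lower by a fold of 2 or more and 1 was higher, beside 1.13% and 18.5% of all genes counted, with a median log2 ratio of -1.45 beside 0.57 over all genes. In DKO 3 were lower and 2 higher, beside 1.7% and 12.9%, with a median of -0.37. In YAPKO 3 were higher and none lower, beside 6.01% and 0.554%, with a median of 0.48. Relative to the median gene 2 were higher and 1 lower in YAPKO, beside 1.78% and 1.24%, 0 and 6 in TAZKO, beside 3.35% and 4.8%, and 2 and 5 in DKO, beside 5.1% and 3.83%. Saa1, an acute-phase gene, stood at 1888, 1695, 112 and 313 CPM and Fgb, a fibrinogen chain, at 9534, 6699, 3584 and 2049. Orm1 stood at 3506, 1942, 1091 and 1779. TAZKO was lowest in Saa1 and Orm1 as in Hamp, but DKO was low in all 3 where its Hamp was the highest. Lcn2, a STAT3 target, stood at 21.2, 186, 6.13 and 105 CPM, with TAZKO lowest. Socs3 stood at 3.27, 14.0, 9.23 and 10.4 CPM, with WT lowest.

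Over 42 units of 1 library and 1 cell type, on log2(CPM + 1) and among 12580 genes, the genes most like Bmp2 were Egfl7, Kdr and Ptprb, with Pearson r of 0.995, 0.994 and 0.993. Those most like Bmp6 were Exoc3l2, Amotl1 and Pxdn at 0.976, 0.976 and 0.975. Among the genes most like Gdf2 were Reln (0.974) and Sod3 (0.970). Hamp was most like Fbp1, Ttc36 and Apoc3 at 0.979, 0.979 and 0.978, and Id1 most like Anxa3, Kifap3 and App at 0.896, 0.890 and 0.883. Units of a library share 1 mouse and 1 library, so these are descriptions of where genes are found.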

How the data were processed

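Single cells of 4 livers were measured with the 10x 3′ kit, 1 mouse per genotype. The authors aligned reads to mm10 with Cell Ranger (6.0.1 per the submitters' notes, 4.0.0 per the file headers) and deposited raw UMI counts for each gene in each barcode. Barcodes with 500 to 6000 genes and at most 10% mt- UMIs were kept. Counts were log-normalized to 10000, 2000 variable genes without the members or pathway lists and 20 components were corrected by library with Harmony, written for this purpose, and clustered at resolution 0.4 (scanpy 1.11.5, igraph 0.11.9). This lowered the share of a cell's neighbours from its own library from 67.85% to 41.71%. Of 22 clusters, those with a leading marker list of 14 were named. UMIs were summed per library and cell type and scaled to 1000000. Levels have exact Poisson intervals, ratios exact conditional binomial ones and shares Clopper-Pearson ones (scipy 1.17.1), tested on simulated data. They cover counting error only, and no p-value was made. Genes needed 100 UMIs over a pair of libraries, or over all 4 libraries for the pathway lists, to be counted, and cell types 50 cells. Named were the members in cell types of 50 cells, pathway genes past a fold of 2 or among the most abundant 3 of a role, as examples, and the 3 genes most like a member, of which 1 is not reported here. Genes named outside this rule were chosen after their values were seen. Motifs and windows came from RefSeq tables, coordinates from GENCODE M21. Alternatives were the limits read as UMIs, 20% mt- UMIs, no correction, cells by markers alone, the top 8% by doublet score left out, other scaling, resolution 0.8 and thinning. Members and lists were chosen with earlier results of these data known.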

Additional observations from a re-analysis of the deposited data

Results flagged for a closer look

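A pair of members had intervals on opposite sides of 0 in HCs and ECs under the same contrast, both as plain ratios and relative to the median gene, with at least 100 UMIs over the pair of libraries in each cell type. Bmp2 in TAZKO had a log2 ratio to WT of 1.14 in HCs and -0.051 in ECs, while the EC markers in HCs were 0.883% of their EC level in TAZKO and 0.391% in WT. Hamp2 in YAPKO had a log2 ratio of 0.62 in HCs and -1.19 in ECs, while HC markers in ECs were 1.18% of their HC level in YAPKO and 4.57% in WT. Hamp in DKO lay on opposite sides as a plain ratio alone, at 0.14 in HCs and -1.24 in ECs, but was -0.33 in HCs relative to the median gene, while HC markers in ECs were 1.59% of their HC level. In these cases the difference was not tested, since each genotype is 1 library, and the part of the carried RNA was not tested.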

How the results depend on the processing

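No paired analysis was possible because each genotype is 1 library. Of 428 values under alternatives, 287 stayed within the main interval, 122 moved beyond it and 19, counted only where the main interval lay on 1 side of 0, changed sign, and all 20 shares moved with thinning. The values are log2 ratios to WT in the order YAPKO, TAZKO, DKO unless a library is named, and the cause was not tested. For Hamp in HCs they were -0.43, -0.43 and 0.67 with limits read as UMIs, where a cluster of 6373 cells nearest to HCs had no name and was left out, -0.90, -0.74 and 0.10 with cells named by markers, -0.96, -1.72 and -0.33 relative to the median gene, and -0.73, -1.32 and -0.076 with genes over 1% left out of totals. The subsets that follow, and those of ECs, were chosen after seeing the data. Hamp was -0.86, -0.77 and 0.078 in the Gstm3 cluster, -0.50, -1.22 and 0.21 in the Apob cluster, -0.96 and -0.47 at 2000 to 6000 UMIs (YAPKO, TAZKO), -1.49, -0.54 and 0.37 in the pericentral range, -0.48, -1.58 and 0.11 outside it, and -0.56, -1.20 and 0.20 without the 10 highest HCs. Bmp2 in ECs was -0.086, -0.23 and -0.047 relative to the median gene, -0.077 in YAPKO and -0.023 in DKO by other totals, -4.62e-05 in YAPKO by markers, -0.0064 in TAZKO and 0.12 in DKO with UMI limits, -0.035 in DKO without batch correction, and 0.00069 in TAZKO in ECs with no HSC marker UMI. Bmp6 was -0.12 in YAPKO with UMI limits, 0.25 in TAZKO relative to the median gene and -0.28 in DKO in ECs with no HSC marker UMI. Signs changed for Smad6 in TAZKO ECs (-0.038 with UMI limits, -0.072 relative to the median gene) and for Hamp2 in the pericentral range (-1.50 in YAPKO, -1.37 in TAZKO) and without the 10 highest HCs (0.73 in DKO). They changed for Id1 in TAZKO in the pericentral range (0.084) and in DKO HCs (-0.019 with UMI limits, -0.57 by markers, -0.17 in the Gstm3 cluster, -0.072 at 2000 to 6000 UMIs). They also changed for Smad6 in HCs (-0.41 in YAPKO by markers, -1.72 in DKO in the Gstm3 cluster) and for Tfr2 (-1.20 and -0.31 in YAPKO in the Gstm3 cluster and at 2000 to 6000 UMIs, -0.34 and -0.40 in TAZKO relative to the median gene and in the pericentral range). UMI limits gave 35 of the 39 ratios, and Smad6 had no WT UMI in the pericentral range. Depth limits Smad6 in HCs and Bmp10, and 1 mouse per genotype limits every comparison.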
